A study of Mus musculus with 9 samples.

Results

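Expression of the AP-1 and Egr immediate early factors was examined in activated hepatic stellate cells (aHSCs), the scar-forming cells of injured liver. The members were fixed by name as 10 genes: Fos, Fosb, Fosl1, Fosl2, Jun, Junb, Jund, Atf3, Egr1 and Egr2. A probe was taken as a member when the symbol in the deposited table, or failing that a synonym, was one of these names. This gave 12 of the 45281 probes on the array, which covered 9 of the 10 genes. Jund was carried under its older symbol Jund1, and Fosl1 was matched by no probe and was not analysed here. Of the 12 probes, 11 were detected on at least 3 of the 9 arrays and were tested among 20573 such probes. Each gene is given by its brightest tested probe.

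RNA was measured on Illumina bead arrays, with 1 array per sample and 3 arrays per group. All mice were C57/Bl6, labelled male, and of genotype WT1GFP/+, in which GFP, the green fluorescent protein, is read out from 1 allele of Wt1, so that fluorescence marks cells in which that gene is active. WT1-high (GFP high) and WT1-intermediate (GFP low) aHSCs were sorted directly from livers made fibrotic by repeated carbon tetrachloride. WT1-negative (GFP negative) aHSCs came from uninjured livers and were sorted after 7 days of culture on plastic. All cells were first enriched by density centrifugation and were sorted straight into lysis buffer. Origin, fibrotic liver or culture, coincided with WT1 status, and the effects of the 2 cannot be told apart. There was no WT1-negative group from fibrotic liver and no quiescent group.

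AP-1 is a dimeric transcription factor made of a Fos family protein and a Jun family protein, or of Jun proteins alone, which binds short palindromic sites in promoters and enhancers. The genes of several of these subunits, and of the zinc finger factors Egr1 and Egr2, are immediate early genes: their transcripts rise within minutes of growth factor, cytokine, mechanical or stress signals, without new protein synthesis, and decay quickly. In the liver they are known for their early induction after injury and during tissue dissociation, and AP-1 is a known regulator of matrix metalloproteinase and cytokine genes in stellate cells.

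Mean intensity per array lay between 147 and 289, and 38.1% to 43.7% of probes were detected. The label of stellate cells was met in part: 8 of 11 stellate cell markers were tested, and Gfap and Lhx2 were detected on no array and Lrat on only 1. Those tested summed to a normalised intensity of 5754 to 6698 on WT1-high arrays, 4119 to 6658 on WT1-intermediate arrays and 9889 to 11852 on WT1-negative arrays. Markers of other cells were present. Mesothelial markers (8 of 8 tested) summed to a normalised intensity of 32475 to 36053 on WT1-high arrays, 18565 to 25513 on WT1-intermediate arrays and 339 to 433 on WT1-negative arrays. Macrophage markers (13 of 14 tested) summed to 5134 to 8294, 16697 to 27822 and 56233 to 61215 in the same order. T and NK cell markers (7 of 9 tested, Gzmb detected on no array) summed to 805 to 1246, 760 to 1327 and 148 to 159, and hepatocyte markers (5 of 8 tested, Alb and Fgb detected on no array) to 376 to 2033, 490 to 1487 and 102 to 203. Neutrophil markers (6 of 7 tested) summed to 1065 to 2267, 1773 to 2829 and 347 to 643, endothelial markers (10 of 10 tested) to 1143 to 1512, 1856 to 2348 and 795 to 1031, and B cell markers (2 of 4 tested, Ms4a1 detected on no array) to 74 to 94, 98 to 112 and 45 to 55. In bulk RNA of this kind, fewer cells of a type and less RNA per cell cannot be told apart.

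The comparison with cultured cells gave the larger differences. Against WT1-negative cells, Fosb, Atf3, Jund, Fos, Fosl2, Egr1 and Jun were higher in both groups from liver. The range ran from 2.10-fold for Jun to 16.8-fold for Fosb in WT1-high cells, and from 2.25-fold for Egr1 to 15.3-fold for Fosb in WT1-intermediate cells. Egr2 went the other way and was 2.33-fold lower in the WT1-high group, and Junb passed no test. So 7 genes were called higher and 1 lower in WT1-high cells, out of 9 tested, where 59.6% of all 20573 probes were called, 26.5% as higher and 33.1% as lower. In WT1-intermediate cells 7 were called higher and none lower, where 58.0% of all probes were called, 24.4% as higher and 33.6% as lower. The median log2 difference was 1.64 over the members and -0.10 over all probes in the first comparison, and 1.47 and -0.14 in the second. Both comparisons share the cultured samples, so that their values are set side by side only. Between the 2 groups from liver, 0 of 9 members were called, where 3.55% of all probes were.

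**Figure D1:**
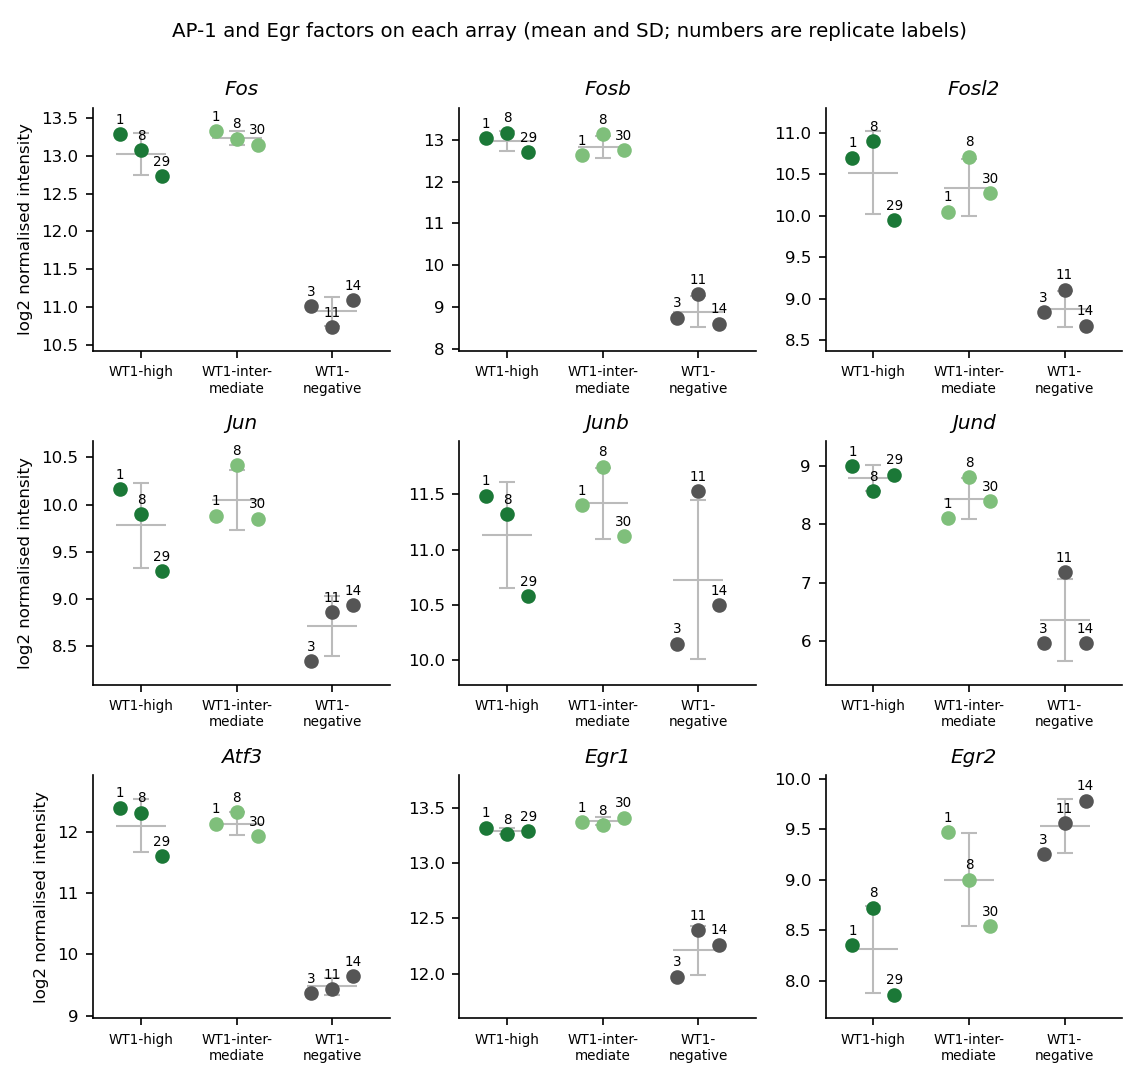
Log2 normalised intensity (vertical axis) of the 9 measured genes on each array of the 3 groups, with grey bars for the mean and SD and the replicate label above each point. The 6 arrays from fibrotic liver lie above the 3 arrays from culture for Fos, Fosb, Fosl2, Jun, Jund, Atf3 and Egr1, overlap them for Junb, and lie at or below the highest cultured array for Egr2.

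The 250 bases before the RefSeq starts of the members (build GRCm38.p6) were searched on both strands for binding letters of the factors that switch such genes on. An entry was found for 8 of the 10 members, and Egr1 and Fosl1 had none. TGACG, the core of the cAMP response element bound by CREB and ATF proteins, was found before 5 of the 8 genes: Fos, Fosb, Junb, Atf3 and Egr2. It occurs before 19.8% of all 27025 genes with an entry, counted over all starts of a gene and without that omission. By window it was found in 7 of the 12 before these genes and in 17.8% of all 32851. Of these windows, those before starts 3, 4 and 5 of Egr2 hold it by the same bases. GCGNGGGCG, the site of Egr proteins, was found before Fosb and Fosl2, and before 5.33% of all genes. GGGCGG, the GC box, was found before 6 of the 8, and before 35.4% of all genes. It overlaps the Egr site in Fosb and in Fosl2. TGANTCA, the AP-1 site, was found before none of the 8, and before 7.82% of all genes. Variants of any of these sites, and sites further than 250 bases from a start, were not searched. The CArG box of serum response factor was found before Egr2, upstream of 4 of its 5 RefSeq starts, and before 1.62% of all genes. Starts 3, 4 and 5 share the same bases for this match as well.

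The windows that hold TGACG or GCGNGGGCG are printed for Fos, Fosl2, Junb and Atf3 because they place these letters next to the start of genes with and without a call. Fos, Fosl2 and Atf3 were called higher in both groups from liver, and Junb in neither. Whether Junb differed from the other genes in its response was not tested. They run 5′ to 3′ on the strand of the gene and end at the base before the start. For Fosb a longer RefSeq transcript covers the letters, so that only 30 bases around them are shown. Capitals mark TGACG, which reads CGTCA when it lies on the opposite strand, and GCGNGGGCG. The stretches lie at chr12:85473640-85473889, plus strand (Fos), chr7:19310081-19310110, minus strand (Fosb), chr5:32136222-32136471, plus strand (Fosl2), chr8:84978749-84978998, minus strand (Junb), and chr1:191183334-191183583, minus strand (Atf3).
Fos: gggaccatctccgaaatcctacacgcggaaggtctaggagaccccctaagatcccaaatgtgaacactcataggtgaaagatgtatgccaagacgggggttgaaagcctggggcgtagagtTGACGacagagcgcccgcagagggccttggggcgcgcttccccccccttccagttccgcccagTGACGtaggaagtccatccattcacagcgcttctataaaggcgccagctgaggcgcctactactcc
Fosb: gcgggTGACGcaagcGCGGGGGCGggtccc
Fosl2: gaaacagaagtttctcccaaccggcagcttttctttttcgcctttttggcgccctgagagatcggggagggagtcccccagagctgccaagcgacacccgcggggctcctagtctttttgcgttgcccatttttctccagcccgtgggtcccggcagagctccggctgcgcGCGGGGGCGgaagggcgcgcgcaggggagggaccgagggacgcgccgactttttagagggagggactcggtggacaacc
Junb: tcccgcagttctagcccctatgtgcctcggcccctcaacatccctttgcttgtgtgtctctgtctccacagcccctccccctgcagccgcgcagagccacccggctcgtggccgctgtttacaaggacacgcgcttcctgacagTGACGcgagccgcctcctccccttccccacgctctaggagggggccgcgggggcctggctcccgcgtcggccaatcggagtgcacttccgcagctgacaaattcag
Atf3: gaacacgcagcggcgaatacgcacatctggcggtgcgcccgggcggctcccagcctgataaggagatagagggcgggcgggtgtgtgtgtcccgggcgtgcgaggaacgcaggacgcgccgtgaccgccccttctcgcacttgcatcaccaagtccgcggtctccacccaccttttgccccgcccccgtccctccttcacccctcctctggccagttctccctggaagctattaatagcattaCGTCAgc
Fos holds TGACG at 129 and 66 bases before its start, Fosb at 60, Junb at 106, and Atf3 at 7 on the other strand. The Egr site begins 50 bases before the start of Fosb and 79 before that of Fosl2. Jun and Jund, both called higher in cells from liver, hold neither in this window. The letters thus do not separate the genes that were called from Junb, and a match describes the letters only.

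**Figure D2:**
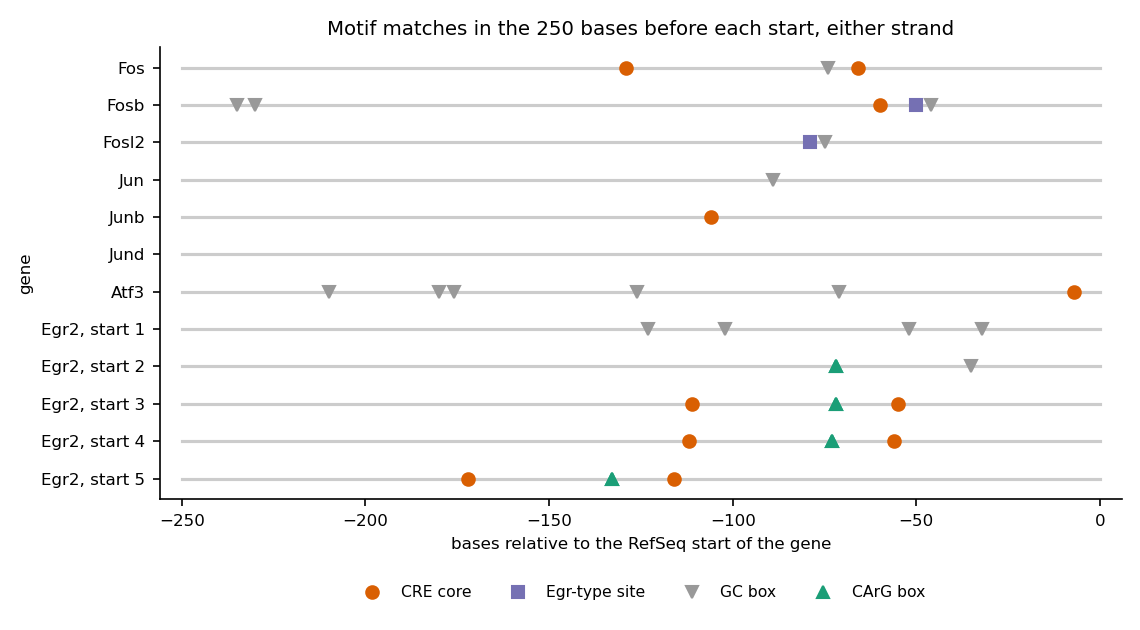
Position of motif matches (horizontal axis, bases relative to the RefSeq start at 0) before each start of the 8 members searched. CRE core is TGACG, Egr-type site is GCGNGGGCG and GC box is GGGCGG. Egr2 has 5 starts, of which starts 2 to 5 hold the CArG box, starts 3 to 5 by the same bases.

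The Fos family supplies the partners that Jun proteins need for strong binding. Fos, the founding member, had log2 levels of 13.29, 13.08 and 12.73 in the WT1-high samples labelled 1, 8 and 29. It reached 13.33, 13.23 and 13.15 in the WT1-intermediate samples 1, 8 and 30, and 11.01, 10.73 and 11.09 in the WT1-negative samples 3, 11 and 14. All 6 samples from fibrotic liver were thus above all 3 from culture, and sample 29 was the lowest of the 6. The difference was 2.09 on the log2 scale (SE 0.17, 95% interval 1.71 to 2.47) for WT1-high and 2.30 (SE 0.17, 1.91 to 2.68) for WT1-intermediate, with adjusted p = 1.8e-06 and 1.1e-06 (limma, Benjamini-Hochberg over all probes). Fos was bright in every group: at most 0.289% of probes were brighter in any sample from fibrotic liver, and at most 1.7% in any cultured sample.

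Fosb, which also encodes a long-lived truncated protein known from chronic stimulation, differed most. Its log2 level was 13.03, 13.16 and 12.7 in WT1-high samples 1, 8 and 29, and 12.62, 13.12 and 12.74 in WT1-intermediate samples 1, 8 and 30. In culture it was 8.76, 9.32 and 8.61 in samples 3, 11 and 14. The groups from liver lay more than 3 log2 units above every cultured sample and overlapped each other. The difference was 4.07 (SE 0.22, 95% interval 3.59 to 4.54, adjusted p = 6.5e-08) for WT1-high and 3.93 (SE 0.22, 3.46 to 4.41, adjusted p = 1.1e-07) for WT1-intermediate. Fosb was still detected on all 3 cultured arrays, with deposited intensities of 551.1 to 792.3 against 4041 to 10230 on the arrays from liver.

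Fosl2 encodes Fra-2, a slower and longer-lived member of the family that is linked to fibrosis. Its main probe gave 10.7, 10.9 and 9.95 in WT1-high samples 1, 8 and 29, then 10.05, 10.71 and 10.27 in WT1-intermediate samples 1, 8 and 30, and 8.84, 9.11 and 8.68 in WT1-negative samples 3, 11 and 14. Neither group from liver overlapped the cultured group on this scale. The difference was 1.64 (SE 0.25, adjusted p = 2e-04) for WT1-high and 1.47 (SE 0.25, adjusted p = 0.00049) for WT1-intermediate. Before normalisation the intensities of WT1-intermediate samples (613 to 1652) and WT1-negative samples (575.6 to 689.3) overlapped, and with median scaling in place of quantile normalisation the WT1-intermediate difference was 0.74 (adjusted p = 0.12). The 2 other Fosl2 probes were dim, at log2 levels of 4.28 to 5.27, and disagreed with the main probe or with each other. One was detected only in the cultured group, and differed by -0.32 (adjusted p = 0.072) and -0.31 (adjusted p = 0.08) from it in WT1-high and WT1-intermediate cells. The other was detected only on arrays from liver and was called in WT1-intermediate cells, at least 1.23-fold higher (adjusted p = 0.037). The value of Fosl2 therefore rests on 1 of 3 probes.

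The Jun family supplies the other subunit of the dimer, and Jun proteins can also pair with themselves. Jun gave log2 levels of 10.16, 9.9 and 9.29 in WT1-high samples 1, 8 and 29, and 9.88, 10.42 and 9.85 in WT1-intermediate samples 1, 8 and 30. In WT1-negative samples 3, 11 and 14 it gave 8.34, 8.86 and 8.93. The highest cultured sample, 14, was below the lowest sample from liver, WT1-high 29. Jun was higher by 1.07 (SE 0.25, 95% interval 0.52 to 1.63, adjusted p = 0.0036) in WT1-high and by 1.34 (SE 0.25, 0.78 to 1.90, adjusted p = 0.00092) in WT1-intermediate cells. As for Fosl2, median scaling ended the second call (0.61, adjusted p = 0.2), and the unnormalised intensities of the WT1-intermediate (471.5 to 1328) and WT1-negative samples (442.5 to 664.7) overlapped.

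Jund, the family member that most resting cells already express and that often restrains growth, gave 9, 8.57 and 8.85 in WT1-high samples 1, 8 and 29. It gave 8.11, 8.81 and 8.4 in WT1-intermediate samples 1, 8 and 30, and 5.96, 7.18 and 5.96 in WT1-negative samples 3, 11 and 14. Cultured sample 11 stood apart from the other 2 cultured samples but remained below every sample from liver on this scale. Its deposited intensity, 241.6, was above that of WT1-intermediate sample 30, 206.6. The difference was 2.44 (SE 0.31, adjusted p = 4.4e-05) for WT1-high and 2.07 (SE 0.31, adjusted p = 0.00017) for WT1-intermediate. Without background correction it was 1.73 (adjusted p = 0.00016) and 1.42 (adjusted p = 0.00057).

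Junb, an immediate early gene whose product often opposes Jun, was the member that did not separate the groups. It gave 11.49, 11.32 and 10.58 in WT1-high samples 1, 8 and 29, then 11.4, 11.75 and 11.12 in WT1-intermediate samples 1, 8 and 30, and 10.15, 11.53 and 10.5 in WT1-negative samples 3, 11 and 14. Cultured sample 11 was above 5 of the 6 samples from liver, whereas the other 2 cultured samples were below all 6. The difference was 0.40 (95% interval -0.35 to 1.15, adjusted p = 0.33) for WT1-high and 0.70 (-0.05 to 1.45, adjusted p = 0.1) for WT1-intermediate. Sample 11 decided this: without it the differences were 0.81 (adjusted p = 0.034) and 1.11 (adjusted p = 0.0082). A second Junb probe was detected on no array and was not tested.

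Atf3, a stress-induced factor of the ATF/CREB family that pairs with Jun proteins and can repress its targets, gave 12.4, 12.32 and 11.61 in WT1-high samples 1, 8 and 29. WT1-intermediate samples 1, 8 and 30 gave 12.14, 12.33 and 11.94, and WT1-negative samples 3, 11 and 14 gave 9.37, 9.43 and 9.64. Every sample from liver was about 2 log2 units or more above every cultured one, and the cultured samples were close to each other (SD 0.14). Atf3 was 6.19-fold above culture in WT1-high cells (log2 difference 2.63, SE 0.21, adjusted p = 1.6e-06) and 6.31-fold higher in WT1-intermediate cells (2.66, SE 0.21, adjusted p = 1.8e-06).

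Egr1 and Egr2 are close relatives that bind the same GC-rich site, yet in WT1-high cells they differed from culture in opposite directions. Egr1, a broad mediator of growth factor and injury signals, gave 13.32, 13.26 and 13.29 in WT1-high samples 1, 8 and 29. It gave 13.37, 13.34 and 13.41 in WT1-intermediate samples 1, 8 and 30, and 11.97, 12.39 and 12.26 in WT1-negative samples 3, 11 and 14. The samples from liver were nearly level with each other, and all cultured samples were lower. Egr1 was higher by 1.09 (SE 0.15, adjusted p = 7.3e-05) in WT1-high and by 1.17 (SE 0.15, adjusted p = 4.8e-05) in WT1-intermediate cells. No more than 0.108% of probes were brighter than Egr1 on any array from liver, so its level there lay near the top of the array's range. Its pooled SD within groups, 0.13, was the smallest of the 9 genes.

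Egr2, known for myelination and for its expression in macrophages and lymphocytes, was the 1 member at its highest mean in culture. It gave 8.35, 8.72 and 7.86 in WT1-high samples 1, 8 and 29, and 9.47, 9 and 8.54 in WT1-intermediate samples 1, 8 and 30. In WT1-negative samples 3, 11 and 14 it gave 9.25, 9.56 and 9.78. All WT1-high samples were below all cultured samples, while the WT1-intermediate group overlapped both of the others. The difference from culture was -1.22 (SE 0.27, 95% interval -1.81 to -0.64, adjusted p = 0.0022) for WT1-high and -0.53 (-1.12 to 0.06, adjusted p = 0.11) for WT1-intermediate. Without WT1-intermediate sample 1 the latter was -0.76 (adjusted p = 0.032), and with median scaling it was -1.27 (adjusted p = 0.025). The summed level of the macrophage markers, given above, rose in the same order of groups, from WT1-high through WT1-intermediate to WT1-negative. Single markers did not all follow it. Of 13 tested, 1 was called higher and 9 lower in WT1-high against WT1-negative cells, and 3 higher and 6 lower in WT1-intermediate cells. The part of macrophages in the Egr2 values was not tested.

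In 7 members all 3 WT1-high samples lay above all cultured ones and in 1, Egr2, below, which holds for 30.7% and 37.7% of all probes, 68.4% in all. In the same 7 members the WT1-intermediate samples lay above and in none below, against 28.0% and 37.5% of all probes, 65.5% in all.

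**Figure D3:**
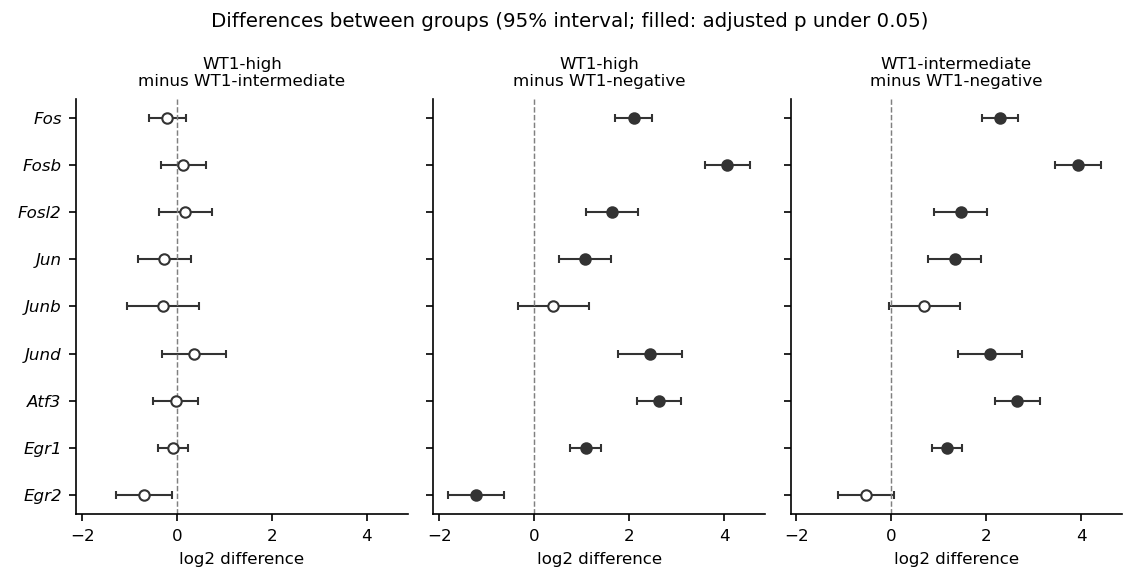
Log2 difference (horizontal axis) of each gene in the 3 comparisons, with its 95% interval. Filled points have an adjusted p under 0.05: none in WT1-high minus WT1-intermediate, all but Junb in WT1-high minus WT1-negative, and all but Junb and Egr2 in WT1-intermediate minus WT1-negative. The interval is narrowest for Egr1 and widest for Junb.

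Among the cells of fibrotic liver, where no member was called between WT1-high and WT1-intermediate, 1 member had an unadjusted limma p under 0.05. It was Egr2, at -0.69 (95% interval -1.28 to -0.10, adjusted p = 0.21). Intervals for the other genes contained 0. They were -0.58 to 0.18 for Fos, -0.34 to 0.61 for Fosb, -0.38 to 0.73 for Fosl2 and -0.82 to 0.29 for Jun. For Junb, Jund, Atf3 and Egr1 they were -1.05 to 0.46, -0.31 to 1.04, -0.50 to 0.44 and -0.41 to 0.24. A difference of 2-fold, 1 on the log2 scale, lay outside the interval for Fos, Fosb, Fosl2, Jun, Atf3 and Egr1 with quantile normalisation. With median scaling, which raised the median of all probes to 0.45, it lay outside for Fos, Egr1 and Egr2 only. Fosl2 was then 0.83 (0.00 to 1.66), Jund 1.07 (0.18 to 1.97), Fosb 0.55 (-0.03 to 1.13), Jun 0.42 (-0.42 to 1.26) and Atf3 0.53 (-0.17 to 1.23), and none was called. Fos, Fosb and Egr1 lay near the top of the signal range on the arrays from liver. Egr1 was the 1 member whose groups did not overlap, with every WT1-high sample below every WT1-intermediate sample. Groups were apart for 20.1% of all probes, 8.60% in this direction and 11.5% in the other, and the difference was -0.08 (SE 0.15, adjusted p = 0.82).

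Within groups, some samples were the lowest or the highest for most of the members. These samples were picked out after seeing the values, and such counts were not made over all probes. WT1-high sample 29 was the lowest of its group for 7 of the 9 genes, with a mean deviation of -0.34 from the group means, and WT1-high sample 1 was the highest for 6. In the WT1-intermediate group, sample 8 was the highest for 6 genes and sample 30 the lowest for 5. In the cultured group, sample 11 was the highest for 5 genes, by 0.80 over the group mean for Junb and 0.81 for Jund, yet it was the lowest for Fos. The median deviation over all probes was between -0.02 and 0.01 on every array, as normalisation sets it. Junb, Jund and Egr2 varied most, with pooled SDs of 0.53, 0.47 and 0.39, which 96.7%, 94.6% and 89.6% of probes stayed below. On the 8 arrays with bead counts in use, between 25 and 62 beads stood behind each value. The standard error of their mean was at most 5.41% of the intensity, which is not the spread of single beads.

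**Figure D4:**
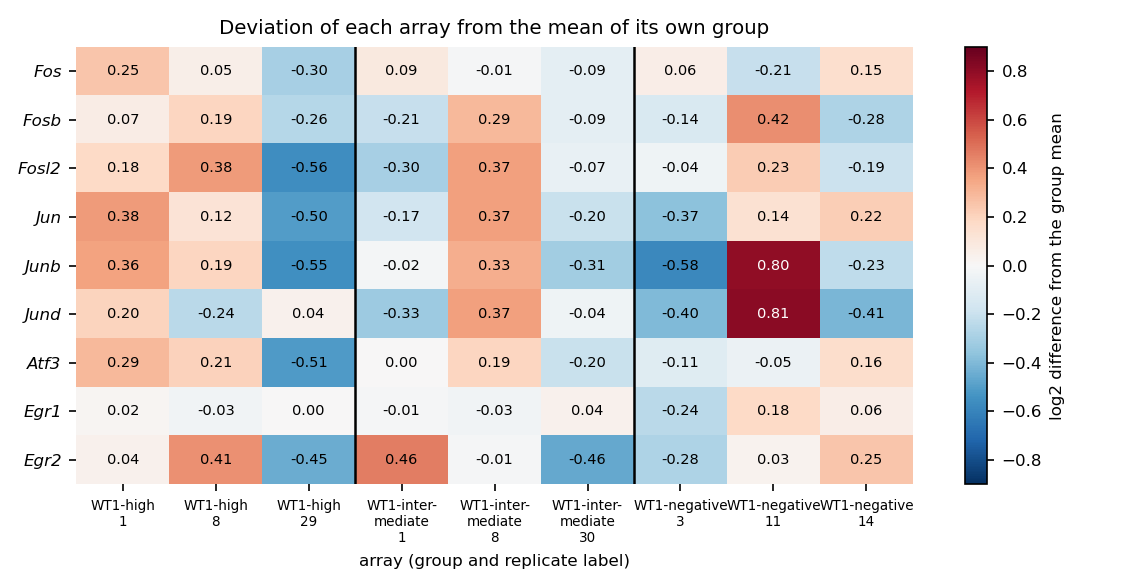
Log2 deviation (colour and printed value) of each gene on each array from the mean of its own group. WT1-high sample 29 is low in 7 genes, and cultured sample 11 is high for Junb and Jund (0.80 and 0.81) and low for Fos (-0.21).

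Genes that work with the members were followed in 8 lists. Their counts against WT1-negative cells stand beside 59.6% (WT1-high) and 58.0% (WT1-intermediate) of all probes called, so that a list with a share near these does not stand apart from other probes. Of 13 AP-1 partners and related factors tested, 6 were called higher and 3 lower in WT1-high cells, and 5 higher and 4 lower in WT1-intermediate cells. That is 69.2% in each, not far above the share of all probes. Maff, a small Maf protein, was 5.50-fold and 4.73-fold higher (adjusted p = 1.8e-05 and 4.3e-05). Mafk, another small Maf, was detected on no cultured array and was at least 3.16-fold and 3.49-fold higher (adjusted p = 0.00013 and 8.8e-05). Crem, a cAMP-responsive modulator, was 3.02-fold higher in WT1-high cells (adjusted p = 0.00072), while the large Maf protein gene Maf was 2.82-fold lower in WT1-intermediate cells (adjusted p = 4.2e-05).

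Of the Egr relatives and their Nab corepressors, 2 of 4 (50%, below the share of all probes) were called higher in both comparisons and none lower. Egr3, itself an immediate early gene, was 2.42-fold higher in WT1-high (adjusted p = 4.3e-05) and 1.89-fold higher in WT1-intermediate cells (adjusted p = 0.00054). Nab1, which binds Egr proteins and curbs their activity, was 2.00-fold and 1.65-fold higher (adjusted p = 0.0024 and 0.015). With median scaling Egr3 and Nab1 were 0.20 (adjusted p = 0.51) and -0.02 (adjusted p = 0.95) on the log2 scale in WT1-intermediate cells. Leaving out WT1-intermediate sample 30 or cultured sample 11 also ended that call of Nab1 (0.59 and 0.47, adjusted p = 0.06 in both), and the mean of all Egr3 probes was 0.21 (adjusted p = 0.16). Egr4 and Nab2 were not called. Among serum response factor and its partners, the ternary complex factors, 3 of 6 genes were tested. Srf was 2.30-fold and 1.71-fold higher (adjusted p = 3.4e-05 and 0.00091), but 0.03 on the log2 scale in WT1-intermediate cells with median scaling (adjusted p = 0.91). The partner Elk3, which can repress, was 2.20-fold and 1.64-fold lower (adjusted p = 0.00035 and 0.0071).

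Upstream, the MAP kinases carry signals from receptors to these factors. Of 10 tested, 1 was higher and 5 were lower in WT1-high than in WT1-negative cells, and 1 was higher and 6 lower in WT1-intermediate cells, which makes 60% and 70% called. With median scaling only 1 was lower in WT1-high cells. The higher one was Map2k1, which encodes MEK1, by 2.49 and 2.78 on the log2 scale (adjusted p = 1.8e-05 and 9.6e-06). It was detected on only 1 cultured array. Map2k7, which activates the Jun kinase JNK, was lower by 1.32 and 1.84 (adjusted p = 1e-04 and 1e-05). Of 10 feedback inhibitors of these kinases, 5 were higher and none lower in WT1-high cells (50% called), and 6 were higher and 1 lower in WT1-intermediate cells (70% called, with 3 higher under median scaling). Dusp8, a phosphatase of stress kinases, was 8.11-fold and 5.67-fold higher (adjusted p = 7.8e-07 and 3.9e-06).

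Of 21 other immediate early genes tested, 16 were higher and 1 lower in WT1-high cells (81% called), and 15 higher and 1 lower in WT1-intermediate cells (76.2% called), against 26.5% and 24.4% of all probes called higher. The list medians were 1.34 and 1.56 on the log2 scale. Klf4, a zinc finger factor, was 18.9-fold and 18.6-fold higher (adjusted p = 8.9e-09 and 1.3e-08). Ptgs2, the inducible cyclooxygenase, was detected on no cultured array and was at least 8.52-fold and 6.20-fold higher (adjusted p = 1.4e-07 and 5.7e-07). Nr4a2, an orphan nuclear receptor, was 9.00-fold and 6.93-fold higher (adjusted p = 2.3e-05 and 7.1e-05).

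Heat shock genes encode chaperones that cells make under stress, and 9 of 10 (90%) were higher in both comparisons, and none was lower. With detection required on all 9 arrays, 8 were higher in WT1-high cells. With median scaling, 6 were higher in WT1-intermediate cells. In WT1-high cells Hspa1a and Hspb1 were 35.8-fold and 18.0-fold above culture (adjusted p = 3e-09 and 3.7e-07). Hspa1b, whose sequence is nearly identical to that of Hspa1a, so that the probes may share signal, was at least 14.6-fold higher (adjusted p = 2.2e-08). The summed heat shock level was 21493 to 22371 on WT1-high arrays, 18036 to 22404 on WT1-intermediate arrays and 8002 to 9435 on WT1-negative arrays. The T and NK cell, B cell, neutrophil, endothelial, mesothelial and hepatocyte marker sums were also higher on all arrays from liver than on any cultured array. The sums of stellate cells and macrophages were lower, though not every marker was. Of 8 stellate cell markers, 3 were called higher and 3 lower against culture in each group from liver. Of 13 macrophage markers, 1 was called higher and 9 lower in WT1-high cells, and 3 higher and 6 lower in WT1-intermediate cells. Of 10 endothelial markers, 4 were called lower and 2 higher in WT1-high cells against culture, and 4 lower and 4 higher in WT1-intermediate cells. Of 6 neutrophil markers, 3 were called higher and 1 lower in WT1-high cells, and 4 higher and none lower in WT1-intermediate cells. Origin in liver or culture cannot be told apart from WT1 status in these groups, and the part of the heat shock response and of the other cells in the members' values was not tested.

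**Figure D5:**
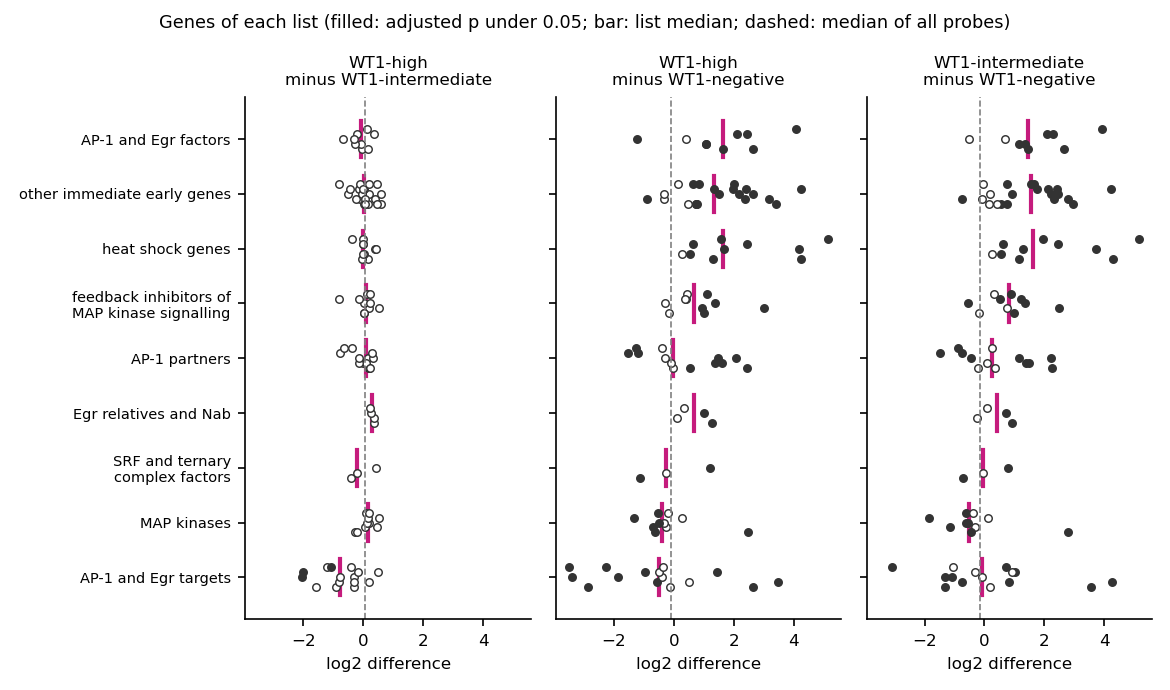
Log2 difference (horizontal axis) of every tested gene in the AP-1 and Egr factors and the 8 lists, in the 3 comparisons. Filled points have an adjusted p under 0.05, bars mark the list medians, and the dashed line marks the median of all probes. Members, other immediate early genes and heat shock genes lie mainly right of the dashed line against culture (medians 1.64, 1.34 and 1.63 for WT1-high), whereas target genes spread to both sides.

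Of 15 known targets of AP-1 and Egr factors tested, 3 were higher and 7 lower in WT1-high against WT1-negative cells, and 5 were higher and 5 lower in WT1-intermediate cells. That is 66.7% called in each, near the 59.6% and 58.0% of all probes. Il6 was 11.1-fold and 19.2-fold higher (adjusted p = 7.1e-06 and 1.9e-06), and Il1b was 11.8-fold higher in WT1-intermediate cells (adjusted p = 4.3e-05). Both encode inflammatory cytokines. Mmp9, a gelatinase also made by macrophages, was 11.3-fold and 8.44-fold lower (adjusted p = 6.7e-06 and 2.2e-05), and the collagenase gene Mmp13 was 10.5-fold lower in WT1-high cells (adjusted p = 3.5e-06).

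The targets also held the only calls among the 8 lists between WT1-high and WT1-intermediate cells with quantile normalisation: 3 of 15 were lower in WT1-high cells and none higher, against 2.64% and 0.904% of all probes. They were Mmp13, 4.16-fold lower (adjusted p = 0.0048), the stromelysin gene Mmp3, 3.99-fold lower (adjusted p = 0.0048), and the angiogenic factor gene Vegfa, 2.11-fold lower (adjusted p = 0.013). The Vegfa call was lost with median scaling (-0.39 on the log2 scale, adjusted p = 0.36), without the filter on dim probes (-1.08, adjusted p = 0.05) and without WT1-intermediate sample 1 (-0.96, adjusted p = 0.057). The median over the targets was -0.78, against -0.08 over the members and 0.05 over all probes. No member was called in this comparison, though the intervals given above were wide for Junb, Jund and Egr2. Whether the factors have a part in these target values was not tested. Macrophage markers were also lower in WT1-high cells, 10 of 13 called, and their part in the 3 values was not tested.

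Across the 9 arrays the genes most like Fos among 14658 others were Ythdf3 (Pearson's r = 0.995), Zfp521, Zkscan3, LOC386246 and Nfib (each 0.993). These values are descriptive, since the arrays fall into 2 clusters that set most of the correlation. Atf3 was the member nearest to Fos, at rank 8 with r = 0.991, and Fosb followed at 0.971 and Egr1 at 0.96. Junb stood at 0.518 and Egr2 at -0.601.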

How the data were processed

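Total RNA from 9 sorted samples was hybridised by the authors to Illumina MouseWG-6 v2.0 arrays. The deposited intensity of each probe was exported by the authors from BeadStudio and was neither background corrected nor normalised. A deposited detection p-value gives the share of negative control probes that were brighter. The members and the lists of related genes and markers were chosen with earlier results of these data known. Intensities were processed as the study describes, with neqc of limma 3.58.1 in R 4.3.3 (936 negative controls, offset 16, quantile normalisation, log2). Only probes that 3 or more arrays detected (p under 0.05) were tested. For WT1-intermediate 30 this p was computed from its negative controls, which on the other 8 arrays gave the deposited value to within 0.0011 and changed no detection call. One linear model of the 3 groups used all 9 arrays (residual degrees of freedom 6, prior 5.19), with two-sided moderated tests in 3 comparisons. An adjusted p is limma's after Benjamini-Hochberg over all 20573 probes, and under 0.05 is a call. A probe that the dimmer group detected nowhere is given as a bound, against the lowest level detected. Of 180 list entries, 170 were matched by symbol, 1 by a synonym with the same Entrez ID, and 9 were not matched. Named genes of a list were the 3 with the largest called difference whose groups did not overlap, of which some are given. The study took the 6 in vivo arrays from 3 animals. Deviations from group means correlated at 0.35 and 0.34 between WT1-high and WT1-intermediate arrays with the same number (1 and 8) and at 0.47 between 29 and 30, against -0.39 to 0.03 otherwise. The study's methods describe a linear model and mention no pairing, so blocks were run as alternatives. A column numbered 29 bore the mark of GFP-low cells and was used for WT1-intermediate 30, the sample of that group without a column of its own; it equalled that sample in the joined deposited table (largest difference 0). Another 75 per-sample columns (array SDs, counts of arrays, bead values and detection p-values of controls or repeats) were not used. Promoter letters and coordinates are from RefSeq (GRCm38.p6). The fit was tested on simulated data. The number of arrays limits the precision, and whether samples of a group share an animal or preparation is not given in the labels.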

Additional observations from a re-analysis of the deposited data

How the results depend on the processing

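The members' results were recomputed under 22 alternatives between WT1-high and WT1-intermediate cells and 20 in each comparison with WT1-negative cells: other background correction, scaling, offset, filters, probe summary, sample sets, weights, prior and replicate blocks, and leaving out each array. Over 558 such member values, 9 changed their call and 14 changed sign. Median scaling moved the median difference over the members to 0.42 for WT1-high minus WT1-intermediate and to 0.95 for WT1-intermediate minus WT1-negative. That scaling moved the median of all probes by itself, to 0.45 and -0.44, so that the members stood -0.03 and 1.39 from it. It also turned the split of calls, with WT1-high above WT1-intermediate in 95.5% of calls against 25.5%. Averaging all kept probes of a gene gave a member median of 1.09 for WT1-high minus WT1-negative, where Fosl2 was 0.50. Array weights brought Junb past the threshold (0.70, adjusted p = 0.038, and 0.88, adjusted p = 0.024), and Egr2 in WT1-intermediate against WT1-negative cells (-0.65, adjusted p = 0.037). The sign changes all lay between WT1-high and WT1-intermediate cells, where no value was called. With median scaling they were Fos 0.05, Jun 0.42, Junb 0.31, Atf3 0.53, Egr1 0.10 and Egr2 0.00. Cyclic loess gave Fosb -0.07, and the mean of all probes gave Fosl2 -0.04. Leaving out 1 array each gave -0.01 (without WT1-high replicate 8) to 0.45 for Fosl2 and -0.17 to 0.22 (without WT1-high replicate 29) for Atf3. Atf3 was 0.07 with array weights, and with the replicate block by the labels' numbers 0.13 when fixed and 0.02 when random. By the labels' numbers 29 and 30 are unpaired. With 29 and 30 as 1 replicate block, the only model with 3 pairs, 0 members were called and Egr2 was -0.69 (adjusted p = 0.057). No replicate block changed the call of a member. A fixed block could be fitted only there, since WT1-negative samples share no number with the others. The cause of these changes was not tested. Members' other values kept their direction and their side of the threshold, apart from those given with Fosl2, Jun, Junb and Egr2 above. The named list genes were run under the same alternatives, chosen after seeing the data: of 935 values, 16 were no longer called and 1, Nab1 with median scaling (-0.02), changed sign. Those of Egr3, Nab1, Srf and Vegfa stand above. Markers were not rerun.

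No depth in reads exists for arrays. Egr1, Fos and Fosb lay near the top of the signal range in cells from liver.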
